A study of Mus musculus with 4 samples.

Results

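The genes described here are 8 transcription factor genes of naive T cells, Tcf7, Lef1, Foxo1, Foxp1, Bach2, Satb1, Ets1 and Id3. They, like the gene lists used below, were chosen by name with earlier results of these data known. Shares of all genes given beside them are thus descriptions and no independent support. All 8 were found once each among the 37583 features of the deposited tables. RNA was sequenced from naive CD4+ T cells that were sorted from the spleen of C57BL/6 mice and activated with plate-bound antibodies to CD3 and CD28. All 4 cultures ran for 24 h under conditions that the labels call aTh17: the cytokines IL-1β, IL-6 plus IL-23, and neutralising antibodies to IFN-γ and to IL-4. One library came from cells given 1.5 µM DMAT and another from cells given 1 µM CX4945. Both compounds inhibit CK2, a serine/threonine kinase. Each has its own control library, named in the titles as the culture without that compound, so each of the 4 groups held 1 library. The labels used here name no vehicle for the controls and no age or number of mice, and they do not say whether cells were pooled. All samples had been activated for the same time, so no library shows the resting state.

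These factors hold T cells in a resting, long-lived state. TCF1 (the product of Tcf7) and LEF1 are HMG-box proteins that bind the same DNA motif and can pair with beta-catenin. FOXO1 is a forkhead factor that drives homing and survival genes and is expelled from the nucleus when AKT is active. FOXP1 is a forkhead factor that keeps naive cells quiescent. BACH2 is a repressor of effector genes that competes with AP-1 factors, SATB1 organises chromatin, ETS1 is the founding ETS factor, and ID3 blocks the DNA binding of E proteins. Transcripts of several of them are known to fall as T cells become effectors.

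The members lie on separate parts of the mm9 genome. Tcf7 spans 52065873 to 52096681 on chromosome 11, Lef1 130813389 to 130927274 on chromosome 3 and Foxo1 52072259 to 52154031 on the same chromosome. Foxp1 spans 98875332 to 99472715 on chromosome 6, Satb1 51875512 to 51972615 on chromosome 17 and Ets1 32443806 to 32565405 on chromosome 9. Bach2, at 32325779 to 32673083, and Id3, at 135699412 to 135701670, are both on chromosome 4. The RefSeq promoter table (GRCm38.p6) matched 7 of the 8 genes, with 17 transcription start sites in all, and Ets1 was not matched. The 250 bases before each start were searched on both strands for letters bound by members of these same families. The ETS letters CCGGAAG were found in 2 of the 17 member windows, of Tcf7 and of Bach2, against 6.91% of all 32851 windows. They are shown because ETS1 is itself one of the 8 factors. In the lines that follow, written 5′ to 3′ on the strand of the gene, capitals mark a match on either strand. The Tcf7 stretch is chr11:52282604-52282630 on the minus strand. The other stretches are whole windows at chr4:32417185-32417434, chr3:131110047-131110296 (both plus strand) and chr17:51833291-51833540 (minus strand). Lef1 and Satb1 are given for comparison, as windows without an ETS match.
Tcf7: gctggagtcaCTTCCGGtgccctgacc
Bach2: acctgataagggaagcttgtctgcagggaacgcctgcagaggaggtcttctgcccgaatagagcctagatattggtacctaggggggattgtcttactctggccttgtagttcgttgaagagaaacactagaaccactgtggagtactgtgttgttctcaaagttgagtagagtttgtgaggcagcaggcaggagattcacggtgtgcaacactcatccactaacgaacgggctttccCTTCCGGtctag
Lef1: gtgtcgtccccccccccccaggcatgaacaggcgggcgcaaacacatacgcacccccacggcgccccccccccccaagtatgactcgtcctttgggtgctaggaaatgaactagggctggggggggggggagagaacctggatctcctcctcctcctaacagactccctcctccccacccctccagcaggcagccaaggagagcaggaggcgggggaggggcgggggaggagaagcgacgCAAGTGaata
Satb1: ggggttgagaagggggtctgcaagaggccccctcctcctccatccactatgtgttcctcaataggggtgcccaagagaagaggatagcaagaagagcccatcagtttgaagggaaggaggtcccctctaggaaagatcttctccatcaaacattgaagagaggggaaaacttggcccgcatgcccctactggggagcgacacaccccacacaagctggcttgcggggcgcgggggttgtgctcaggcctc
The capitals in the Lef1 window are an E-box, CANNTG, the kind of site that E proteins bind and ID3 opposes. An E-box was in 11 of the 17 member windows, of 5 genes, against 66.2% of all windows. No member window held CTTTGAT (TCF/LEF, in 3.21% of all windows), GTAAACA (forkhead, 3.17%) or TGACTCA (BACH and AP-1, 4.46%). The searched motifs do not contain one another. The Bach2 window lies inside Bach2 transcripts that start further upstream. Tcf7 has a second window further upstream, chr11:52283015-52283264, without an ETS match. Its letters look like coding sequence of a longer Tcf7 form, so it may not be a promoter. The ETS match of Tcf7 lies downstream of the start that follows this second window. Of the Tcf7 window that holds the match, 67 bases overlap an annotated untranslated region.

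The libraries held between 2056635 and 2772525 exon reads, and 9331 to 9661 genes had at least 10 reads. The 6 CD4 T cell markers (Cd3e, Cd3d, Cd3g, Cd4, Cd28 and Cd5) summed to between 2090 and 2300 CPM, reads scaled to library size. B cells also express several of these 8 factors. The 6 B cell markers summed to 0.437 to 2.17 CPM, with Cd79b and Ms4a1 at 0 in every library, and the 2 CD8 markers to 2.36 to 4.88 CPM. Myeloid markers summed to at most 0.787 CPM (Lyz2, Itgam and Fcgr3 at 0), dendritic markers to 0.976 (Itgax and Siglech at 0) and NK markers to 1.09 (Ncr1, Klrb1c and Klre1 at 0). The 4 erythroid markers were at 0 in every library. The regulatory T cell list summed to 1030 to 1330 CPM, nearly all from Il2ra and Ctla4, which activated T cells also express, while Foxp3 had 2 to 4 reads. In whole cultures, fewer cells that express a gene and less RNA of it per cell cannot be told apart.

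All 8 factors were detected in every library, and Tcf7 was the highest per length by all exon reads, most of which were not unique for Tcf7. On the RPKM scale (exon reads scaled to library size and exon length) Tcf7 stood at 92.7 in the control for DMAT, 144 with DMAT, 123 in the control for CX4945 and 157 with CX4945. Id3 came next, with 74.8, 90.1, 90.3 and 72.2 RPKM in the same order. Satb1 followed at 48.7 to 66.0 RPKM, then Ets1 at 39.8 to 56.6, Bach2 at 29.3 to 42.3 and Lef1 at 17.7 to 26.1. Foxp1, at 11.4 to 18.0 RPKM, and Foxo1, at 11.1 to 14.3, were lowest. The order of the first 6 genes was the same in all 4 libraries, while Foxp1 and Foxo1 changed places. Their 95% counting intervals overlapped in 3 of the libraries, and those of Satb1 and Ets1 overlapped with CX4945. The exon length used is that of all annotated exons of a gene, from 1791 bases for Id3 to 14266 for Foxp1, so genes with many transcripts may be understated.

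**Figure D1:**
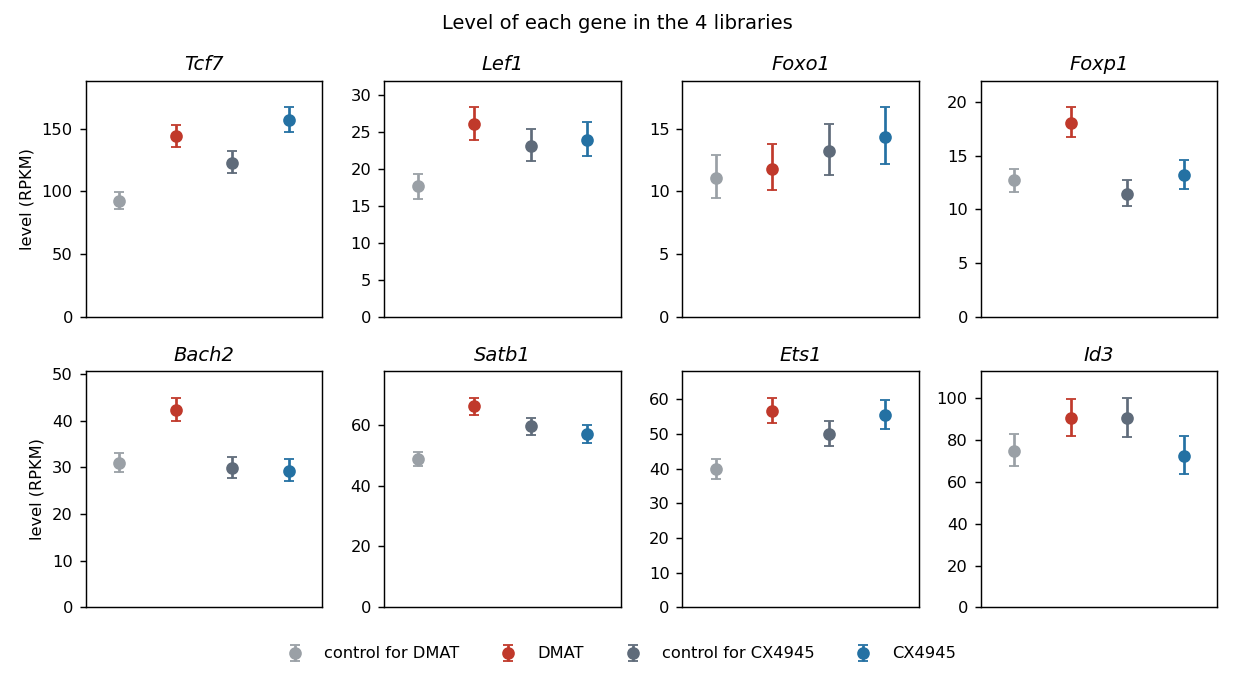
Level in RPKM (vertical axes from 0, 1 panel per gene) in each of the 4 libraries, with bars for the 95% counting interval. Foxp1 and Bach2 are highest with DMAT and their intervals in the controls overlap, while Tcf7, Lef1, Satb1 and Ets1 are lowest in the control for DMAT.

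With DMAT the value of each of the 8 genes was above that of its own control, where 48.6% of genes with at least 200 reads in the pair were above 1. The median log2 ratio of CPM was 0.48, with a range from 0.09 (Foxo1) to 0.63 (Tcf7), while the median over all genes with at least 20 reads in the pair was 0.00. None reached 2-fold, which 1.08% of such genes did upwards. The 95% counting interval of the ratio lay above 1 for 7 of the 8, against 10.8% of that same class of genes, to which all 8 members belong. These intervals cover counting error only, since 1 library per group gives no replicate check and hence no p-value.

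TCF1 and LEF1, the HMG-box pair, had the highest 2 ratios with DMAT by all exon reads, with intervals that overlap those of most of the others. By unique reads the ratio of Tcf7 was 1.25 (0.978 to 1.60), below those of Lef1, Foxp1, Ets1, Bach2 and Satb1. All of those ratios lay inside the interval of Tcf7, so its place in this order is not settled. Tcf7 was at 259 CPM in the control and 401 with DMAT, a ratio of 1.55 (95% counting interval 1.41 to 1.71). Lef1 was at 153 and 226 CPM, a ratio of 1.48 (1.30 to 1.68). The control for CX4945 held 344 CPM of Tcf7 and 200 CPM of Lef1, between the control for DMAT and the DMAT library.

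Of the forkhead genes, Foxp1 was at 181 CPM in the control and 257 with DMAT, a ratio of 1.42 (1.27 to 1.60). Foxo1 had 61.6 and 65.7 CPM, a ratio of 1.07 (0.857 to 1.33), so a difference was not detectable at its depth of 170 and 167 reads.

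The other factors had intervals above 1. Bach2 was at 322 CPM and 441 with DMAT, a ratio of 1.37 (1.25 to 1.50). The chromatin organiser Satb1, with the most reads of the 8, was at 614 and 831 CPM, a ratio of 1.35 (1.27 to 1.44). Ets1 was at 255 and 364 CPM, a ratio of 1.42 (1.29 to 1.57). Id3 was at 134 and 161 CPM, a ratio of 1.20 (1.04 to 1.39).

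With CX4945 the intervals of 5 of the 8 genes included 1. The median log2 ratio was 0.08, with 5 of the 8 above 0 against 50.2% of genes with at least 200 reads, and the median over all genes with at least 20 reads was -0.004. The counting interval lay above 1 for Tcf7 and Ets1, 2 of the 8, against 9.38% of genes with at least 200 reads, and below 1 for Id3, against 10.2%. None reached 2-fold, which 0.823% of genes did upwards.

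Tcf7 was at 344 CPM in the control for CX4945 and 437 with the inhibitor, a ratio of 1.27 (1.15 to 1.40), the largest of the 8 in that pair. Ets1 was at 320 and 356 CPM, a ratio of 1.11 with an interval that starts at 1.00 and ends at 1.23. Scaling by total counts alone brings that interval across 1, which leaves 1 gene. Foxp1 was at 163 and 188 CPM, a ratio of 1.15 (0.997 to 1.33).

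For 4 more genes a difference was not detectable at this depth. Lef1 was at 200 CPM in the control and 208 with CX4945, a ratio of 1.04 (0.908 to 1.19). Foxo1 was at 73.4 and 79.6 CPM (1.08, 0.868 to 1.35), Bach2 at 312 and 305 (0.979, 0.878 to 1.09) and Satb1 at 748 and 717 (0.958, 0.893 to 1.03). Id3, the E protein antagonist, was lower, with 162 CPM in the control and 129 with CX4945, a ratio of 0.800 (0.681 to 0.939).

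**Figure D2:**
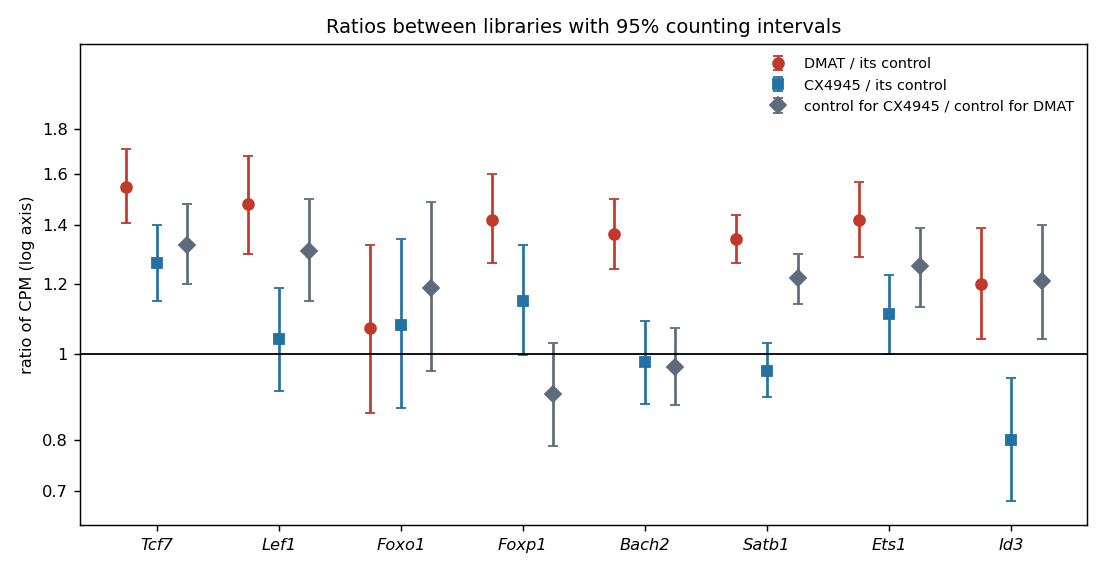
Ratio of CPM between libraries for each gene (log axis), for DMAT over its control, CX4945 over its control, and the control for CX4945 over that for DMAT, with 95% counting intervals. With DMAT 7 of 8 intervals lie above 1, with CX4945 2 of 8, and between the controls 5 of 8.

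Doses and experiments are not the same for DMAT and CX4945, so their values are set side by side and were not tested against each other. Tcf7 and Ets1 had intervals above 1 in both pairs, a pattern shown by 1.69% of the 4739 genes with at least 200 reads in each pair. Ratios above 1 in both pairs were found for Tcf7, Lef1, Foxo1, Foxp1 and Ets1, 5 of the 8, against 25.7% of those genes.

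The control libraries also differed from each other in these genes. In the control for CX4945 the median log2 ratio of the 8 to the control for DMAT was 0.28, and 5 of the 8 intervals lay above 1, against 11.7% of genes with at least 200 reads. The ratios were 1.33 (1.20 to 1.48) for Tcf7, 1.31 (1.15 to 1.50) for Lef1, 1.26 (1.13 to 1.39) for Ets1, 1.22 (1.14 to 1.30) for Satb1 and 1.21 (1.04 to 1.40) for Id3. This comparison and that of DMAT with its control share the control for DMAT, the library in which Tcf7, Lef1, Foxo1, Satb1 and Ets1 were lowest. The part of that library in the DMAT ratios was not tested.

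For Foxp1 and Bach2 the interval between the controls included 1, and the DMAT library was above each control. Foxp1 had a control ratio of 0.902 (0.787 to 1.03) and Bach2 of 0.967 (0.875 to 1.07). Against the control for CX4945 the DMAT library was at 1.58 (1.39 to 1.8) for Foxp1 and 1.42 (1.29 to 1.56) for Bach2. Against that same control Tcf7 was at 1.16 (1.06 to 1.28), Satb1 at 1.11 (1.04 to 1.18), Ets1 at 1.13 (1.03 to 1.25), Lef1 at 1.13 (0.998 to 1.28), Id3 at 0.997 (0.864 to 1.15) and Foxo1 at 0.895 (0.718 to 1.12). The median log2 ratio was then 0.18 in place of 0.48, and 5 of the 8 intervals lay above 1, against 12.9% of genes. The CX4945 library set against the control for DMAT had 5 of 8 above 1, against 17.1%, with a median of 0.30.

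A joint fit took the experiment as a block and the inhibitors as replicates of CK2 inhibition. In it Tcf7 rose and the other 7 genes did not pass. Its log2 fold change was 0.49 ± 0.09 (SE), with an adjusted p of 0.0144 over 9629 genes by edgeR's quasi-likelihood test. In all, 0.561% of the tested genes passed, 0.177% upwards and 0.384% downwards. The next by p were Foxp1 (log2 0.37 ± 0.11, adjusted p = 0.154) and Ets1 (0.34 ± 0.10, adjusted p = 0.173). Lef1 had 0.32 ± 0.11, Bach2 0.23 ± 0.10, Satb1 0.20 ± 0.10, Foxo1 0.11 ± 0.14 and Id3 -0.01 ± 0.13, with adjusted p from 0.394 to 0.996. The fit has 1 residual degree of freedom per gene, so the SE rests mostly on the spread shared across genes and is no spread between replicates.

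The calls depended on the fit and on the reads. Tcf7 passed in 4 of 11 alternatives. They included total-count scaling (edgeR quasi-likelihood, adjusted p = 0.000395), scaling by DESeq2 size factors (0.00307) and no filter on low counts (0.019). Without the block Tcf7 did not pass (edgeR adjusted p = 0.999), nor with DESeq2 (adjusted p = 1.0). With any 1 of the 4 libraries left out, in fits without the block, it did not pass either (adjusted p from 0.0929 to 1.0). Over all 11 alternatives its adjusted p ranged from 0.000395 to 1.0. With unique reads, those placed in a single gene, Tcf7 did not pass (log2 0.35 ± 0.16, adjusted p = 0.488). With unique reads Foxp1 (0.40 ± 0.10, adjusted p = 0.0126) and Ets1 (0.34 ± 0.09, adjusted p = 0.0276) passed instead, among the 0.488% of 9212 genes that rose.

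Tcf7 is the member whose count depended most on how reads were assigned. Just 17.8%, 14.3%, 16.4% and 16.8% of its exon reads were unique, in the order of libraries used above. Each unique exon read of Tcf7 was one that crosses an exon junction: there were 127, 146, 129 and 150 of both. An annotated gene of unknown function, Gm16953 (mm9 chromosome 11, 51763384 to 52083016), overlaps Tcf7 as well as Cdkn2aipnl, Ube2b, Ppp2ca and Skp1a. Gm16953 held 0, 2, 0 and 0 exon reads but 574, 604, 527 and 622 shared reads over its whole length, 22.0% to 27.5% of all shared reads of the group. The shared reads of the 5 overlapped genes came to 2035 in the control for DMAT, more than the 574 of Gm16953, so they were not all listed under Gm16953 too. Part of Tcf7 lies beyond the end of Gm16953. A second feature, A630014C17Rik (chromosome 11, 52089557 to 52099681), overlaps the other end of Tcf7 and had 1, 3, 7 and 7 exon reads. The strand of the reads and the rule for shared reads are not given in the sources used here, so how the shared reads divide between Tcf7 and its overlapping features cannot be told.

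The ratio of Tcf7 was above 1 in every class of read, while its size with DMAT varied. By unique exon reads it was 1.25 with DMAT (0.978 to 1.60) and 1.31 with CX4945 (1.03 to 1.67). By all exon-exon reads it was 1.33 (1.05 to 1.69) and 1.30 (1.02 to 1.64). By exon reads without a junction it was 1.60 (1.44 to 1.78) and 1.26 (1.13 to 1.41). With all shared reads of Gm16953 added to Tcf7, a setting chosen after the data were seen, the ratios were 1.37 (1.27 to 1.48) and 1.29 (1.20 to 1.39). In that setting Tcf7 passed the joint test (edgeR quasi-likelihood, log2 0.42, adjusted p = 0.0188). Some of the added reads may belong to the other genes that Gm16953 overlaps, so this setting cannot decide the call of Tcf7. The other genes overlapped by Gm16953 had lower ratios with DMAT: 1.05 for Cdkn2aipnl, 0.981 for Ube2b, 0.977 for Skp1a and 0.733 (0.650 to 0.825) for Ppp2ca.

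**Figure D3:**
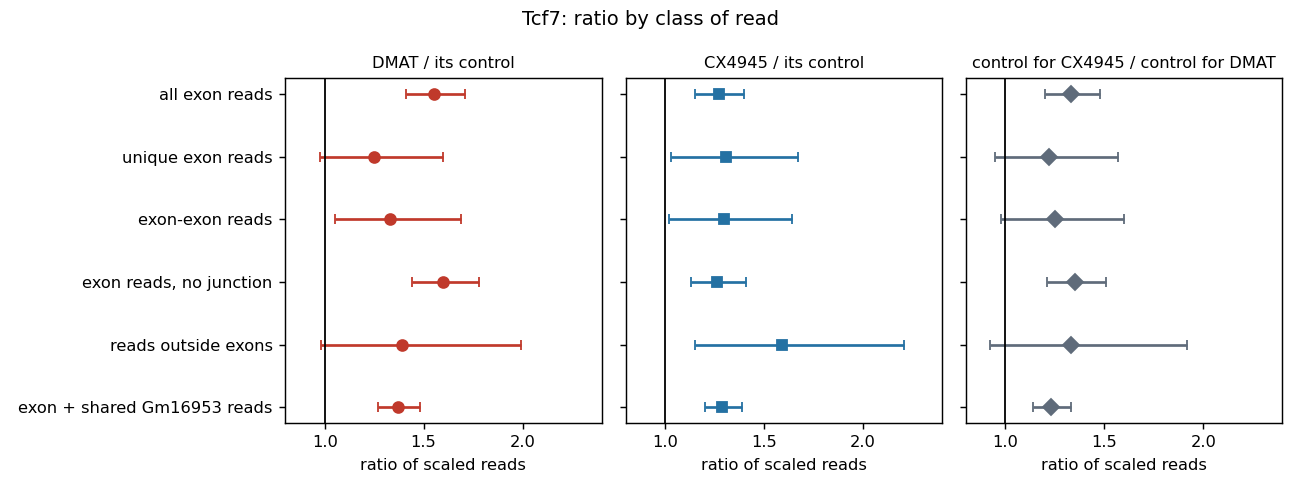
Ratio of scaled Tcf7 reads (horizontal axes) by class of read for 3 comparisons of libraries, with 95% counting intervals. All ratios are above 1. With DMAT they range from 1.25 by unique exon reads to 1.60 by exon reads without a junction, and with CX4945 the exon classes lie between 1.26 and 1.31.

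Of the other members, Lef1, Satb1, Ets1 and Id3 had all exon reads unique, Foxo1 95.2% to 97.6%, Foxp1 97.0% to 99.5% and Bach2 76.3% to 78.7%. Their ratios by unique reads were close to those by all exon reads. With DMAT Bach2 had 1.39 (1.25 to 1.53) and Foxp1 1.46 (1.29 to 1.64). With CX4945 the interval of Foxp1 then lay above 1 (1.18, 1.02 to 1.37).

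Exon-exon reads, which cross a splice junction, are a part of the exon reads, while reads outside exons are counted apart from them. Exon-exon reads summed over the 8 genes were 646 in the control for DMAT and 846 with DMAT, a ratio of 1.42 (1.28 to 1.58), where the ratio over all features was 0.977. They were 687 and 672 for CX4945, a ratio of 1.09 (0.981 to 1.22), with 0.999 over all features. Between the controls the ratio was 1.28 (1.15 to 1.43). In the DMAT pair Ets1 had 48 and 84 junction reads (1.90, 1.32 to 2.77) and Lef1 84 and 132 (1.71, 1.29 to 2.27). Bach2 had 22 and 35 (1.73, 0.986 to 3.09), and Foxo1 had 2 and 4, too few to compare. The ratio was 1.35 (1.02 to 1.79) for Foxp1, 1.34 (1.12 to 1.61) for Satb1 and 1.33 (1.05 to 1.69) for Tcf7. Id3 had 44 and 40 junction reads (0.988, 0.627 to 1.55), so a difference was not detectable at this depth by this class of read.

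Summed over the 8 genes, reads within the genes but outside annotated exons were higher with both inhibitors. With DMAT they went from 532 to 690 over the 8 genes, a ratio of 1.41 (1.26 to 1.58), and with CX4945 from 464 to 537, a ratio of 1.29 (1.14 to 1.47). Over all features the ratios were 1.01 and 1.06. Between the controls the ratio was 1.05 (0.928 to 1.19), and that of summed exon reads was 1.17 (1.13 to 1.22). Bach2 gave the most such reads, 179 and 229 with DMAT (1.39, 1.14 to 1.70) and 163 and 154 with CX4945 (1.06, 0.841 to 1.32). It is overlapped by 4 other features, 2 of them with reads, and their part in its count was not tested. Ets1 had 48 and 70 with DMAT (1.58, 1.08 to 2.34) and 44 and 69 with CX4945 (1.75, 1.18 to 2.62). Satb1 had 87 and 123 with DMAT (1.54, 1.16 to 2.05) and 74 and 82 with CX4945 (1.24, 0.893 to 1.72). Tcf7 had 60 and 77 with DMAT (1.39, 0.982 to 1.99) and 66 and 94 with CX4945 (1.59, 1.15 to 2.21). The part of its overlapping features in these reads was not tested. With CX4945, Tcf7 and Ets1 were the only members with an interval above 1 by such reads. Id3 had 5 at most in any library and Foxo1 12 at most, too few to compare. Such reads were 12.4% to 13.0% of all gene reads and 8.03% to 9.77% of those of the 8 genes.

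None of the relatives of these factors passed the joint test (edgeR quasi-likelihood). Of 22 family relatives, 16 entered the joint fit and 0 passed, with 0 at an unadjusted p under 0.05 and 0 by DESeq2. Over all tested genes, 3.09% were higher and 4.13% lower at that unadjusted p. The median log2 ratio of the relatives was -0.06 with DMAT and 0.20 with CX4945. Foxo3, a forkhead relative, had 0.33 and -0.07 on the log2 scale, and Ets2 had 0.14 and 0.43. Id2, which like ID3 opposes E proteins and is known as an effector-side factor, had -0.48 and 0.52. Tcf7l2 had 1 read at most in any library, and Foxp2 and Id4 had 0.

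Partners and regulators of the factors include kinases and cofactors. Of 21 genes, 20 entered the joint fit and 0 passed (edgeR quasi-likelihood), and 0 passed by DESeq2. At an unadjusted p under 0.05 there were 2 higher and 0 lower, against 3.09% and 4.13% of all genes. Their median log2 ratios were -0.09 and 0.15. The beta-catenin gene Ctnnb1 had -0.24 and -0.11, and Axin2, a target of the beta-catenin pathway, had -0.06 and 0.87 on 34, 30, 29 and 49 reads. Aes, a member of the TLE cofactor family that binds TCF1 and LEF1, had 0.48 and 0.13 (edgeR quasi-likelihood, adjusted p = 0.359). Bcl11b, a T cell identity factor, had 0.37 and 0.20 (adjusted p = 0.473). The AKT gene Akt1, upstream of FOXO1, had -0.01 and -0.15. Sgk1, a kinase that phosphorylates FOXO factors, differed more between the controls (log2 1.19) than within either pair.

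Genes of the naive state, among them targets of FOXO1 and TCF1, had a median log2 ratio of 0.29 in the DMAT pair, 0.33 in the CX4945 pair and 0.43 between the controls. Of 20 genes 17 entered the joint fit, 3 rose and 0 fell (edgeR quasi-likelihood), against 0.177% and 0.384% of all genes. At an unadjusted p under 0.05 there were 7 higher and 1 lower, against 3.09% and 4.13% of all genes. DESeq2 called 0. Those that rose include the chemokine receptor Ccr7, by log2 0.67 ± 0.12 (adjusted p = 0.0132), and Igfbp4 by 0.78 ± 0.11 (adjusted p = 0.000868). Klf2, a FOXO1 target, was over 2-fold higher with CX4945 (log2 1.56, 19 and 54 reads), where 0.823% of genes reached 2-fold. It did not pass (edgeR quasi-likelihood, adjusted p = 0.141). Lztfl1 was 2-fold lower with DMAT (log2 -1.01), as were 1.35% of genes, with 27.4% of its reads unique. Il7r, S1pr1, Klf2 and Klf3 were over 2-fold higher in the control for CX4945 than in that for DMAT, as were 0.983% of genes, Il7r with 37 reads against 7. Against the other experiment's control the median of the list was -0.19 with DMAT and 0.79 with CX4945, with 8 genes over 2-fold higher in the latter, against 1.55% of all genes.

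Activation-state genes are those known to be induced in effector cells. Of 16 genes 14 entered the joint fit and 0 passed (edgeR quasi-likelihood), with 1 higher and 5 lower at an unadjusted p under 0.05 (3.09% and 4.13% of all genes) and 0 by DESeq2. The medians were 0.03 with DMAT, -0.05 with CX4945 and -0.14 between the controls. Irf4 and Batf, partners at AP-1 sites, stood at log2 0.19 and -0.27 in the DMAT pair, then at 0.00 and -0.31 in the CX4945 pair. The adhesion receptor gene Cd44 had -0.78 and -0.54 (edgeR quasi-likelihood, adjusted p = 0.0694). Tbx21, the Th1 regulator, was over 2-fold lower with DMAT (log2 -1.47, 91 and 29 reads), where 1.35% of genes were. With CX4945 Tbx21 stood at 0.12. Prdm1, a gene repressed by BACH2, had 3 reads at most in any library.

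**Figure D4:**
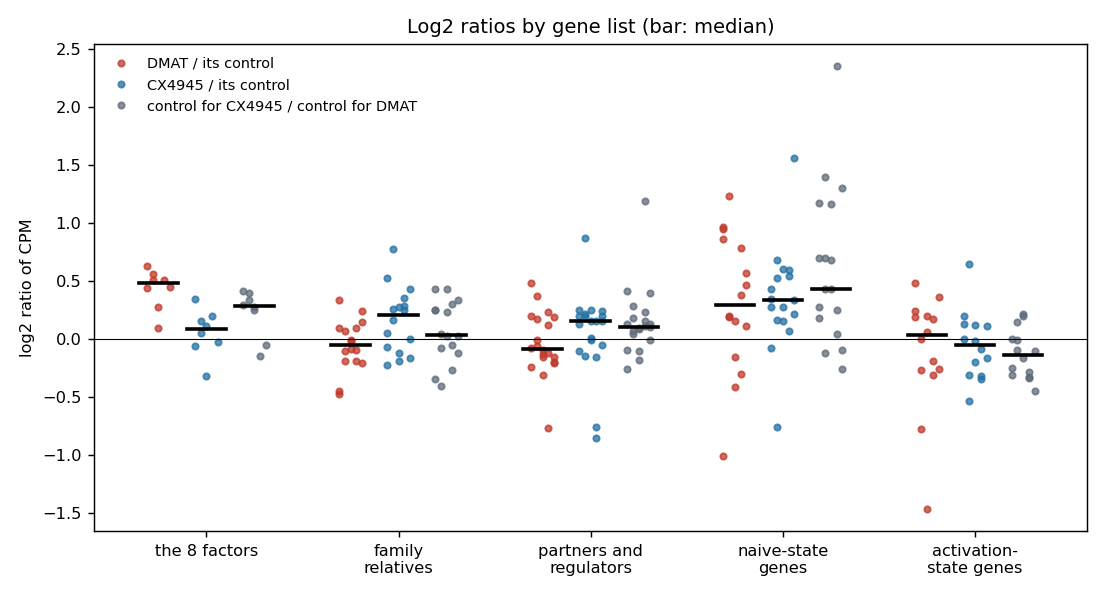
Log2 ratio of CPM (vertical axis) for each gene with at least 20 reads in the comparison, by list, for both inhibitors over their controls and between the controls. Bars are medians: the 8 factors stand at 0.48, 0.08 and 0.28, and the naive-state genes at 0.29, 0.33 and 0.43.

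The members' profiles over the 4 libraries were compared with those of other genes. Their mean centred log2 CPM was -0.23 in the control for DMAT, 0.20 with DMAT, -0.01 in the control for CX4945 and 0.04 with CX4945. Among 6961 other genes with at least 200 reads, the 5 with the smallest Euclidean distance to this profile were Abhd8, Wdr8, Smn1, AW146020 and Plekhm2, at distances of 0.00867 to 0.047. The median distance over all those genes was 0.41, and the farthest of the 8 members stood at 0.349 from their own mean. Because the members define that mean, their distances to it cannot be set against those of other genes. Wdr8 had 51 reads with CX4945, and counting error in the distances was not assessed. With 4 libraries such likeness is a description of these libraries alone.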

How the data were processed

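RNA was measured in 4 libraries of mouse CD4+ T cells, 1 per group. Per the file headers, the authors deposited whole-number read counts per feature (total, unique, exon-exon and gene reads) with exon lengths, unnormalized. Build mm9 and CASAVA 1.8.2 are named in the submitters' processing notes, while the aligner, annotation and counting rule are not given in the sources used here. Library sizes were adjusted by TMM (factors of 0.9959 to 1.007, edgeR 4.0.16 under R 4.3.3). Log2 ratios used a prior count of 2, for genes that reached 20 reads over the pair.

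Ratios carry exact conditional 95% Clopper-Pearson bounds. These cover counting error alone, because each group holds 1 library. Without molecular identifiers reads may be copies of 1 molecule, so the bounds may be too narrow even for counting error. The joint test was edgeR's quasi-likelihood test over all libraries with filterByExpr and the experiment, named by the titles, as a block, with Benjamini-Hochberg adjustment and a threshold of 0.05. Its SE is the absolute log2 fold change divided by the square root of F. DESeq2 1.42.0, other scalings, unique reads, other minimums and left-out libraries were alternatives, and adding the shared Gm16953 reads to Tcf7 was chosen after seeing the data. The labels do not tie libraries to separate animals, hence a p-value reflects only how these samples scatter, possibly for technical reasons. The scripts were tested on simulated data. The members and lists were chosen with earlier results of these data known. All 8 members are named, list genes may be named (always when they passed or reached 2-fold, except that some are not reported here), and the 5 nearest profiles are given.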

Additional observations from a re-analysis of the deposited data

Results flagged for a closer look

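Id3 stood apart because its direction differed between the inhibitors: its log2 ratio was 0.27 with DMAT and -0.32 with CX4945, with counting intervals on opposite sides of 1. The difference was not tested, since each arm holds 1 library. Against the other experiment's control its ratio was 0.997 (0.864 to 1.15) with DMAT and 0.966 (0.822 to 1.13) with CX4945, and the controls themselves differed by a ratio of 1.21. These values are by all exon reads. By exon-exon reads Id3 was at 0.988 (0.627 to 1.55) with DMAT and 0.736 (0.444 to 1.2) with CX4945, each against its own control. Both were below 1, with intervals that included 1.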

How the results depend on the processing

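With DMAT, 5 to 7 members had intervals above 1 under the scalings and prior count tried, with unique reads and with the other control, and 4 had by reads outside exons. The median log2 ratio fell to 0.179 with the other experiment's control. With CX4945 that control gave 5 members and a median of 0.295, and total-count scaling gave 1 member. The genes past 2-fold numbered 234 with DMAT (988 with no minimum, 42 with a minimum of 100 reads) and 163 with CX4945 (847, 26, and 103 with unique reads). The joint edgeR fit called 54 genes and 1 member, Tcf7. No replicate block gave 1 gene and 0 members, DESeq2 3 and 0, total-count scaling 112 genes, DESeq2 size factors 84, and unique reads 108 genes and 2 members. Leaving out each library in turn, without the block, gave 1 to 73 genes and 0 members. The lone library of an arm is then assumed to vary like the others. The pairing comes from the titles, which carry no replicate numbers. The adjusted p of Tcf7 ranged from 0.000395 to 1.0 over the alternatives, and it kept a positive sign. The 337 reads of Foxo1 in the DMAT pair, the fewest of any member there, gave an interval of 0.857 to 1.33. The causes of these changes were not tested.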
